A study of Mus musculus with 22 samples.

Results

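The genes of plasminogen activation and coagulation were followed in fibroblasts sorted from mouse back skin after surgery. The set had 9 genes, chosen by name for their roles with earlier results of these data known: Plat, Plau, Plaur, Serpine2, Serpinf1, F3, Tfpi, Thbd and Procr. All 9 were found among the 55414 genes of the count table, and all 9 had enough counts to be tested, among 17554 tested genes. Every mouse was operated on. In the EXP arm an expander, a hydrogel that swells under the skin, was implanted, and the CTRL arm had the same operation without an expander, so the presence of an implant and its swelling cannot be told apart. Cells were taken on day 1 (4 CTRL and 5 EXP libraries), day 2 (3 CTRL and 3 EXP) and day 4 (4 CTRL and 3 EXP). Live cells with CD34 and PDGFRα at the surface were kept, and cells with CD31, CD45, CD117 or EpCAM were removed by flow sorting. The age, sex and strain of the mice, and whether each library came from its own mouse, were not used here, and p-values measure the spread between these libraries.

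Plasminogen is an abundant precursor in plasma that tissue-type and urokinase-type plasminogen activators cut into plasmin, the protease that dissolves fibrin clots and helps cells move through provisional matrix. Serpins stop the activators, and a receptor on the cell surface holds urokinase near its substrate. Coagulation starts when tissue factor, which fibroblasts around vessels carry, meets factor VII from plasma. Tissue factor pathway inhibitor limits that first step, and thrombomodulin with the protein C receptor turns thrombin from a clotting enzyme into a brake on clotting.

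Library totals lay between 21461294 and 30210204 counts. Levels are given as CPM, which puts libraries of unequal size on 1 scale, after TMM scaling, which corrects each library for the share taken by its most abundant genes. A gene was said to rise or fall at a Benjamini-Hochberg adjusted p under 0.05 in edgeR's quasi-likelihood test, fitted to all 22 libraries and adjusted over all tested genes. Apart from the groups, 192 genes moved together with Rnf10 and put 7 libraries on a high side and 15 on a low side. The high side held day 1 CTRL replicates 1 to 3, day 1 EXP replicates 1 and 2 and day 4 CTRL replicates 3 and 4. The comparisons of a single day were also computed within 1 side, the high side for day 1 and the low side for days 2 and 4. Tests across days were repeated on the 15 low-side libraries alone, where the single day 1 CTRL library is assumed to vary like the other groups. The gene tests were also computed without 3 libraries, picked after seeing the data and called below the libraries that stood apart. They were day 1 EXP replicate 2, day 1 CTRL replicate 4 and day 4 CTRL replicate 4. Day 4 EXP replicates 1 and 3 were kept, although their Pearson r of log2 CPM, 0.915, was the lowest within any group.

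Of the 9 genes, 2 rose in EXP on day 1, 6 rose on day 2 and 6 rose on day 4, and 0 fell on any day. With limma voom 2 genes fell on day 1, F3 and Serpinf1. The background differed by day: 28.6% of all tested genes passed on day 1 (13.9% rose and 14.7% fell), 13.4% on day 2 (7.72% and 5.71%) and 22.5% on day 4 (12.8% and 9.66%). The genes that rose on day 1 were Plaur and Serpine2. Those that rose on both later days were the same 6 genes, Plat, Plau, Serpine2, F3, Tfpi and Thbd, a pattern that 5.05% of all tested genes had. Serpine2 rose on all 3 days, as did 2.5% of all tested genes. The median log2 fold change of the 9 genes was 0.36 on day 1, 1.28 on day 2 and 2.00 on day 4, against 0.02, 0.02 and 0.03 for all tested genes. Single libraries of the arms were fully separate for 1 gene on day 1, with EXP higher, against 11.7% of all tested genes with EXP higher and 12.2% with EXP lower. On day 2 EXP was separate and higher for 7 genes (20.9% of all) and lower for 1 (18.4% of all). On day 4 EXP was separate and higher for 5 genes (13.8% of all) and lower for 0 (11.8% of all). Without the 3 libraries that stood apart the counts that rose were 1, 6 and 6 (24.5%, 13.9% and 16.8% of all tested genes passed). Within 1 side of the library split the counts were 1, 5 and 5 (15.1%, 13.7% and 7.2% of all passed). That fit left out no day 2 library. With a block for the replicate number 1, 4 and 5 genes passed (24.7%, 12.6% and 15.4% of all). With any 1 day 2 library left out, 3 or 4 genes rose on day 2, and Plat, Serpine2 and F3 did so in every such fit. Of all tested genes, 4.88% to 11.9% passed on day 2 in those fits. In bulk libraries, fewer cells of a type and less RNA per cell cannot be told apart.

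**Figure D1:**
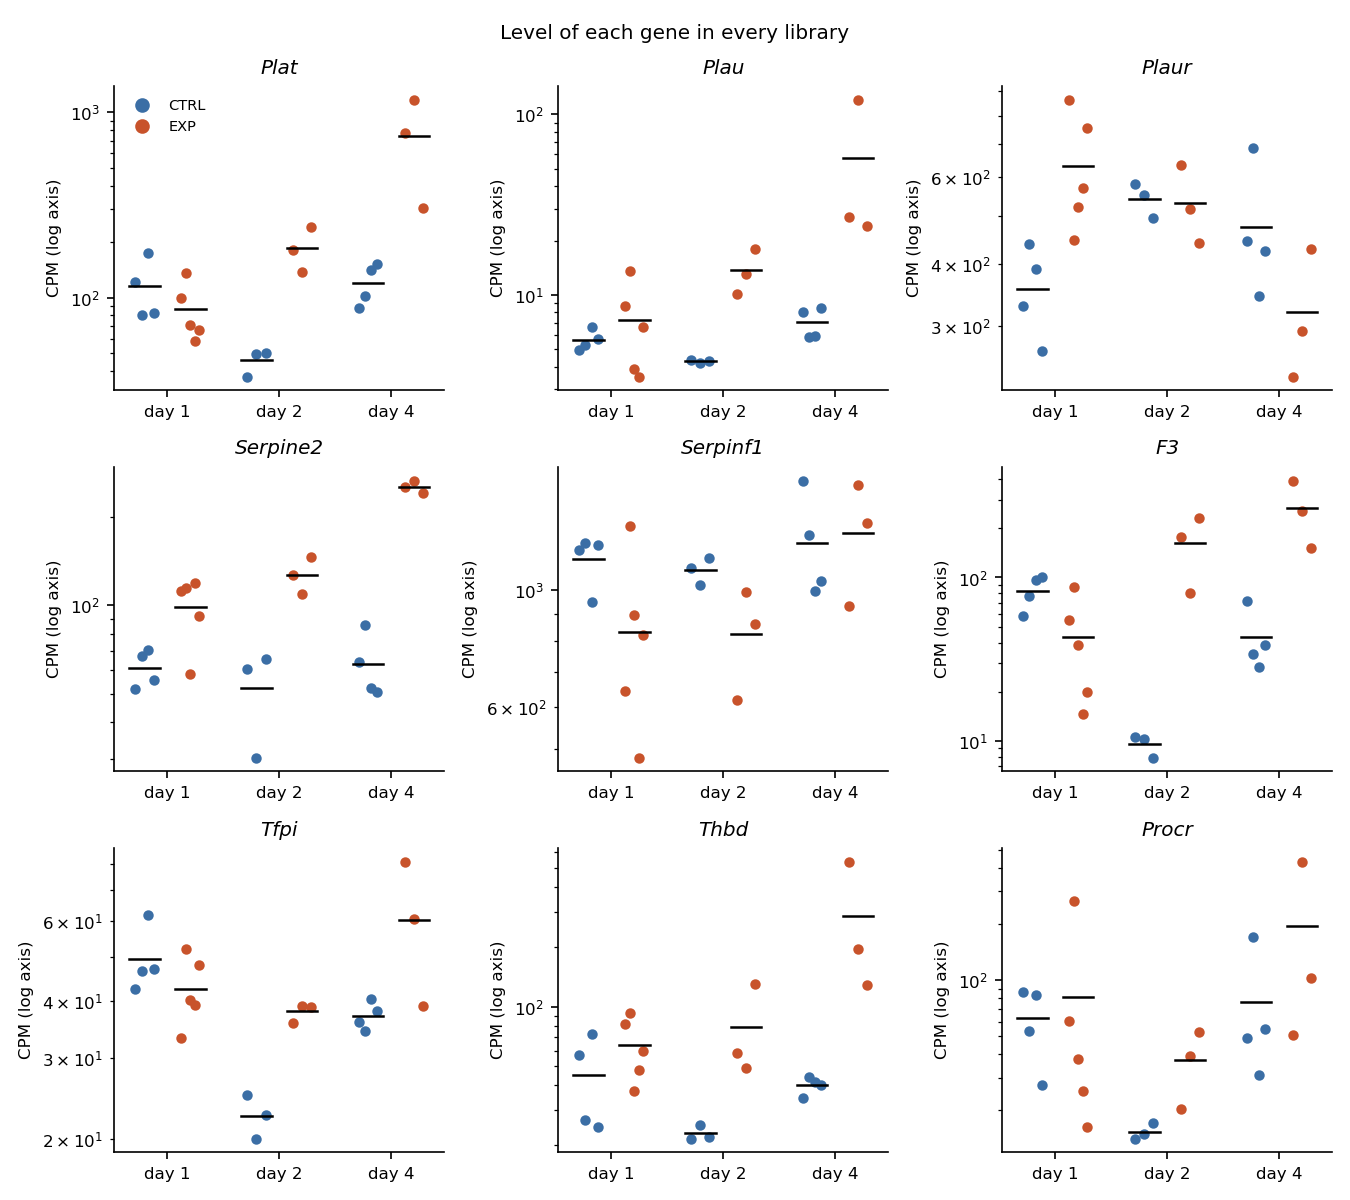
Level of each of the 9 genes in every library, in CPM on a log axis, by day; blue points are CTRL libraries, orange points EXP libraries and black bars group means. On day 2 the EXP libraries of Plat, Plau, Serpine2, F3, Tfpi, Thbd and Procr all lie above the CTRL libraries, and on day 4 those of Plat, Plau, Serpine2, F3 and Thbd do.

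**Figure D2:**
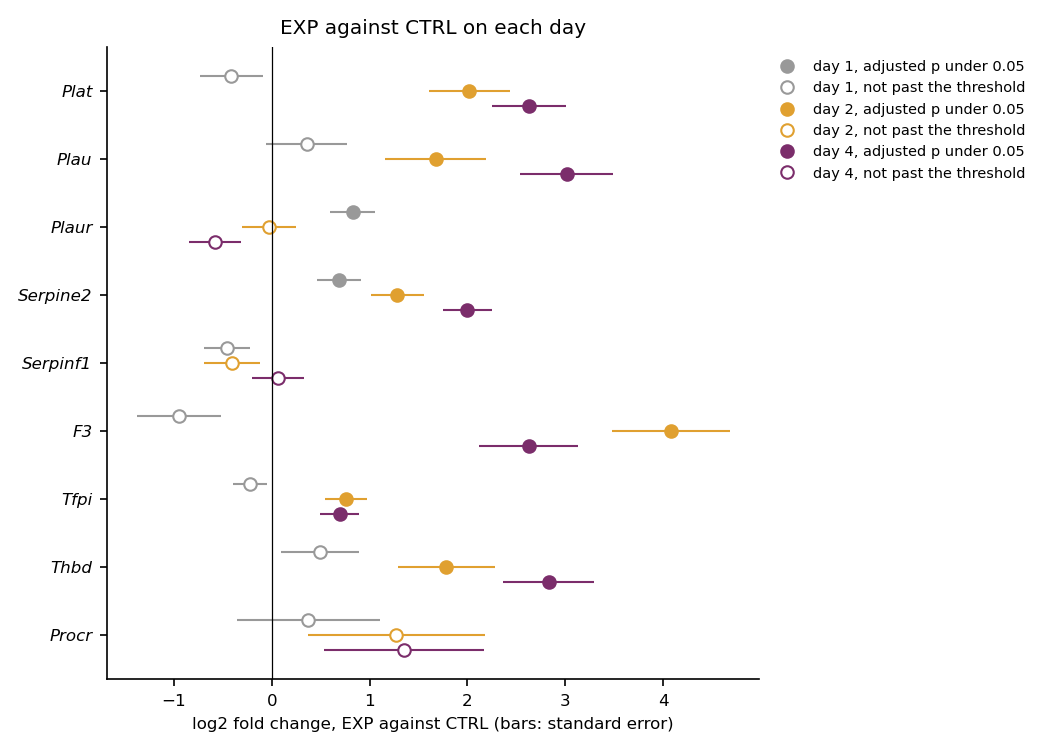
Log2 fold change of EXP against CTRL for each gene on each day, with bars of 1 standard error; filled symbols mark an adjusted p under 0.05. The day 4 values of Plat, Plau, F3 and Thbd lie between 2.63 and 3.01, while Plaur moves from 0.83 on day 1 to -0.58 on day 4.

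Both plasminogen activators rose in EXP fibroblasts on days 2 and 4 and showed no call on day 1. Plat, which encodes tissue-type plasminogen activator, was at 122, 80.4, 174 and 82.7 CPM in the day 1 CTRL libraries and at 99.2, 136, 71.1, 58.3 and 66.5 CPM in the day 1 EXP libraries. The arms overlapped on that day. On day 2 Plat was at 37.5, 49.6 and 50.2 CPM in CTRL and at 181, 138 and 239 CPM in EXP. By day 4 Plat was at 87.5, 102, 140.2 and 151 CPM in CTRL and at 770.2, 1164 and 304 CPM in EXP. On both days every EXP library lay above every CTRL library. For Plat the log2 fold changes on days 1, 2 and 4 were -0.41, 2.02 and 2.63, with standard errors of 0.32, 0.41 and 0.38 and adjusted p of 0.365, 0.00359 and 2.91e-04. The last 2 values are 4.06-fold and 6.20-fold. From day 1 to day 2 the mean level of Plat went down in CTRL, from 115 to 45.8 CPM, and up in EXP, from 86.3 to 186 CPM. In the order of mean levels, day 2 CTRL was lowest and day 4 EXP highest, each apart from its neighbour, while the libraries of the 4 groups between them overlapped from one neighbour to the next.

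Plau, which encodes urokinase-type plasminogen activator, rose on the same days as Plat. Its day 1 libraries were at 4.98, 5.29, 6.65 and 5.67 CPM in CTRL and at 8.69, 13.5, 3.88, 3.53 and 6.67 CPM in EXP. On day 2 they were at 4.38, 4.18 and 4.31 CPM in CTRL and at 10.1, 13.1 and 17.9 CPM in EXP. The day 4 libraries were at 8.02, 5.87, 5.91 and 8.48 CPM in CTRL and at 27.1, 120.2 and 24.0 CPM in EXP. The arms overlapped on day 1 and were separate on days 2 and 4, and EXP replicate 2 of day 4 stood well above the other EXP libraries. For Plau the log2 fold changes on days 1, 2 and 4 were 0.36, 1.67 and 3.01, with standard errors of 0.41, 0.51 and 0.47 and adjusted p of 0.553, 0.0349 and 4.66e-04. The rises were 3.19-fold on day 2 and 8.07-fold on day 4. Without that EXP library the day 4 value was 1.84 (adjusted p 0.00395). The day 2 call was lost in each of the 6 fits that left out 1 day 2 library, with adjusted p of 0.0570 to 0.125.

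Plaur, which encodes the urokinase receptor, rose on day 1 and passed the test on neither later day. Plaur on day 1 was at 329, 440.0, 390.3 and 266 CPM in CTRL and at 863, 448, 523, 570.1 and 756 CPM in EXP, so that all 5 EXP libraries lay above the 4 CTRL libraries. It was the only member of the set whose arms were separate on that day. Plaur on day 2 was at 581, 552 and 495 CPM in CTRL and at 636, 518 and 441 CPM in EXP. By day 4 Plaur was at 446, 689.6, 344 and 425 CPM in CTRL and at 236, 292 and 429 CPM in EXP. The arms overlapped on both of these days. For Plaur the log2 fold changes on days 1, 2 and 4 were 0.83, -0.03 and -0.58, with standard errors of 0.23, 0.28 and 0.26 and adjusted p of 0.0106, 0.961 and 0.115. Without day 4 EXP replicate 3 the day 4 value passed as a fall, at -0.83 (adjusted p 0.0311). The day 1 call held in all 9 fits that left out 1 library of that day, while within the high side of the library split (3 CTRL and 2 EXP libraries) the value was 0.74 with an adjusted p of 0.106. Neighbouring groups overlapped throughout the order of mean Plaur levels.

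Serpine2, which encodes protease nexin-1, an inhibitor of thrombin and of both plasminogen activators, rose on all 3 days. It was at 51.9, 67.3, 70.2 and 55.8 CPM in CTRL on day 1 and at 111, 114, 58.1, 119 and 91.5 CPM in EXP. Serpine2 on day 2 was at 60.8, 30.3 and 65.6 CPM in CTRL and at 127, 109 and 145 CPM in EXP. By day 4 Serpine2 was at 64.2, 85.3, 52.3 and 50.7 CPM in CTRL and at 253, 265 and 241 CPM in EXP. On day 1 only EXP replicate 3 lay within the CTRL range, and on the later days the arms did not overlap. The day 4 EXP libraries were close together, at 253 ± 12.1 CPM (SD, n = 3), and stood apart from every other group. For Serpine2 the log2 fold changes on days 1, 2 and 4 were 0.69, 1.28 and 2.00, with standard errors of 0.22, 0.27 and 0.25 and adjusted p of 0.0250, 0.00433 and 1.29e-04. The rises were 1.61-fold, 2.43-fold and 4.00-fold. The day 1 call was lost without CTRL replicate 1 (adjusted p 0.0781), CTRL replicate 4 (0.0637) or EXP replicate 2 (0.0513), and without the 3 libraries that stood apart (0.108).

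Serpinf1, which encodes pigment epithelium-derived factor, a serpin that inhibits no protease and is known as an inhibitor of vessel growth, passed the test on no day. Serpinf1 on day 1 was at 1192, 1226, 951 and 1213 CPM in CTRL and at 646, 1320.3, 896, 482 and 822 CPM in EXP. Serpinf1 on day 2 was at 1101, 1022 and 1147 CPM in CTRL and at 619, 993 and 862 CPM in EXP. By day 4 Serpinf1 was at 1607, 1270.4, 997 and 1040.2 CPM in CTRL and at 931, 1582 and 1337 CPM in EXP. On day 2 all 3 EXP libraries lay below the CTRL libraries, and on day 1 all but EXP replicate 2 did. For Serpinf1 the log2 fold changes on days 1, 2 and 4 were -0.46, -0.40 and 0.06, with standard errors of 0.23, 0.29 and 0.27 and adjusted p of 0.147, 0.380 and 0.891. Without day 1 EXP replicate 2 the day 1 value passed, at -0.69 (adjusted p 0.0222), and with limma voom on all libraries it passed at -0.57 (adjusted p 0.0440).

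The largest fold change of the set was that of F3 on day 2. It encodes tissue factor, the membrane receptor for factor VII that starts coagulation. On day 1 F3 was at 57.8, 77.4, 96.5 and 101 CPM in CTRL and at 54.8, 87.4, 38.7, 14.6 and 19.8 CPM in EXP. F3 on day 2 was at 10.6, 10.3 and 7.90 CPM in CTRL and at 176, 80.4 and 231 CPM in EXP. By day 4 F3 was at 71.5, 33.8, 28.3 and 38.5 CPM in CTRL and at 390.5, 255 and 152 CPM in EXP. The arms overlapped on day 1, with the 4 lowest libraries all EXP, and were separate on days 2 and 4. The day 2 difference joined a low CTRL level to a high EXP level: the day 2 CTRL libraries were the lowest of all 22, below every other group. For F3 the log2 fold changes on days 1, 2 and 4 were -0.95, 4.08 and 2.63, with standard errors of 0.43, 0.60 and 0.50 and adjusted p of 0.107, 3.70e-04 and 0.00204. These rises are 16.9-fold and 6.18-fold, and both calls held in every fit that left out 1 library of the day. Without day 1 EXP replicate 2 the day 1 value passed the test as a fall, at -1.38 (adjusted p 0.0180), as it did with limma voom on all libraries, at -1.52 (adjusted p 0.00645).

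Promoter windows from RefSeq (GRCm38.p6), 250 bases before to 50 bases after the start, matched 6 of the 9 genes, and Tfpi had 2 windows. They were searched on both strands for the AP-1 motif TGANTCA, the GC box GGGCGG, the TATA box TATAAA and the TEAD motif GGAATG. AP-1 is the Fos and Jun family of factors that respond to wounding and growth signals. Windows of F3, Plaur and Procr held TGANTCA, 3 of the 7 windows of the set, as did 7.81% of all 32851 windows of this length. F3 had 2 matches, which begin at -146 and -135 (the base just before the start being -1), Plaur had 1 at -69 and Procr had 1 at -154. The AP-1 matches overlapped no match of the other motifs. The GC box was in windows of Plaur, Serpine2 (6 matches), F3 and Tfpi, and in 35.7% of all windows. The letters TATAAA were in the F3 window and 1 Tfpi window, and in 13.6% of all windows. Both matches lay on the opposite strand, beginning at 44, past the start, in F3 and at -127 in Tfpi. GGAATG was in none of the 7 windows and in 14.7% of all. The 250 bases before the start are printed below for the 3 genes with TGANTCA, because F3 rose on days 2 and 4, Plaur rose on day 1 alone and Procr passed no test; capitals mark the match. They lie on the + strand at chr3:121723287-121723536 (F3), chr7:24462233-24462482 (Plaur) and chr2:155750967-155751216 (Procr). A match describes the letters of these windows and is not a measured binding site.
F3: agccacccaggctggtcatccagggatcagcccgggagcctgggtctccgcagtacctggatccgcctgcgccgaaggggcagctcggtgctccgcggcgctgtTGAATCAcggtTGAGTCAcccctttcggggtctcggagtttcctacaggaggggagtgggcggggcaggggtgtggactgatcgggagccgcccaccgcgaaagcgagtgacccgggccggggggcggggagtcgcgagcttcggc
Plaur: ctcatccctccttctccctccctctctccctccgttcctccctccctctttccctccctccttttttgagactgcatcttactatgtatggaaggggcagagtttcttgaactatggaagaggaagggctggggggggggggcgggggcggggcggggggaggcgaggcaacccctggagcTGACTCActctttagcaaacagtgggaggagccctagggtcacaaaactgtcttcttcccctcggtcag
Procr: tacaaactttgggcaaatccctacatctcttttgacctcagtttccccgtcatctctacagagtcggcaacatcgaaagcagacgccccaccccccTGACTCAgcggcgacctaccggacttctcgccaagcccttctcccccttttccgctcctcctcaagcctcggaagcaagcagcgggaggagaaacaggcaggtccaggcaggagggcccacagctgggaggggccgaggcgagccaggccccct

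Tfpi, which encodes the inhibitor of tissue factor and factor VII, rose on days 2 and 4. It was at 42.6, 46.5, 61.8 and 47.0 CPM in CTRL on day 1 and at 33.2, 52.1, 40.2, 39.1 and 47.9 CPM in EXP. Tfpi on day 2 was at 24.9, 20.0 and 22.5 CPM in CTRL and at 35.9, 39.1 and 38.9 CPM in EXP. By day 4 Tfpi was at 36.0, 34.3, 40.4 and 38.0 CPM in CTRL and at 80.8, 60.7 and 39.0 CPM in EXP. The arms were separate on day 2 only, and on day 4 EXP replicate 3 lay within the CTRL range. From day 1 to day 2 the CTRL mean went from 49.5 to 22.5 CPM and the EXP mean from 42.5 to 38.0 CPM. In the joint test over days within EXP Tfpi did not pass (adjusted p 0.0627). For Tfpi the log2 fold changes on days 1, 2 and 4 were -0.22, 0.76 and 0.70, with standard errors of 0.17, 0.21 and 0.20 and adjusted p of 0.367, 0.0223 and 0.0164. The day 2 call was lost in 5 of 6 fits that left out 1 library, all but the one without CTRL replicate 1, with adjusted p of up to 0.106. The day 4 call was lost without EXP replicate 1 (0.43, adjusted p 0.176) or EXP replicate 2 (0.67, adjusted p 0.0603). Within 1 side of the library split the adjusted p was 0.0522 on day 2, where no day 2 library was left out, and 0.0883 on day 4.

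The count of F3 relative to that of Tfpi was taken within each library, which removes library scaling. CTRL libraries had a log2 ratio of 0.73 ± 0.28 (SD, n = 4) on day 1, -1.23 ± 0.28 (SD, n = 3) on day 2 and 0.12 ± 0.63 (SD, n = 4) on day 4. For EXP libraries the ratio was -0.26 ± 1.05 (SD, n = 5), 1.97 ± 0.82 (SD, n = 3) and 2.10 ± 0.16 (SD, n = 3) on the same days. On days 2 and 4 every EXP library lay above every CTRL library. The EXP ratio exceeded the CTRL ratio by 3.20 on day 2, where the two-sided exact permutation p was 0.1, the smallest that 3 against 3 allows. The difference was 1.98 on day 4 (exact permutation p 0.0571) and -0.98 on day 1 (exact permutation p 0.151), and the adjusted p over 9 such comparisons was 0.225, 0.225 and 0.271 on days 2, 4 and 1. The other ratios within a library were of Plau to Plat and of Plat to Serpine2. The log2 ratio of Plat to Serpine2, an activator to its inhibitor, was 0.84 ± 0.51 (SD, n = 4) for CTRL libraries of day 1, against -0.22 ± 0.55 (SD, n = 5) for EXP (difference -1.06, exact permutation p 0.0397, adjusted 0.225). It differed by 0.65 on day 2 (exact permutation p 0.3) and by 0.43 on day 4 (exact permutation p 0.486), with overlap of single libraries on both days. For Plau to Plat the differences were 0.60, -0.37 and 0.15 on days 1, 2 and 4 (exact permutation p 0.0873, 0.3 and 0.771), and single libraries of the arms overlapped on each day. None of the 9 comparisons had an adjusted p under 0.05. The smallest exact permutation p possible was 0.00794 on day 1, 0.1 on day 2 and 0.0286 on day 4. No day 2 comparison could therefore pass. On days 1 and 4 a single comparison at that limit could not pass alone after adjustment over 9. The lack of a call thus does not show that the ratios were alike.

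**Figure D3:**
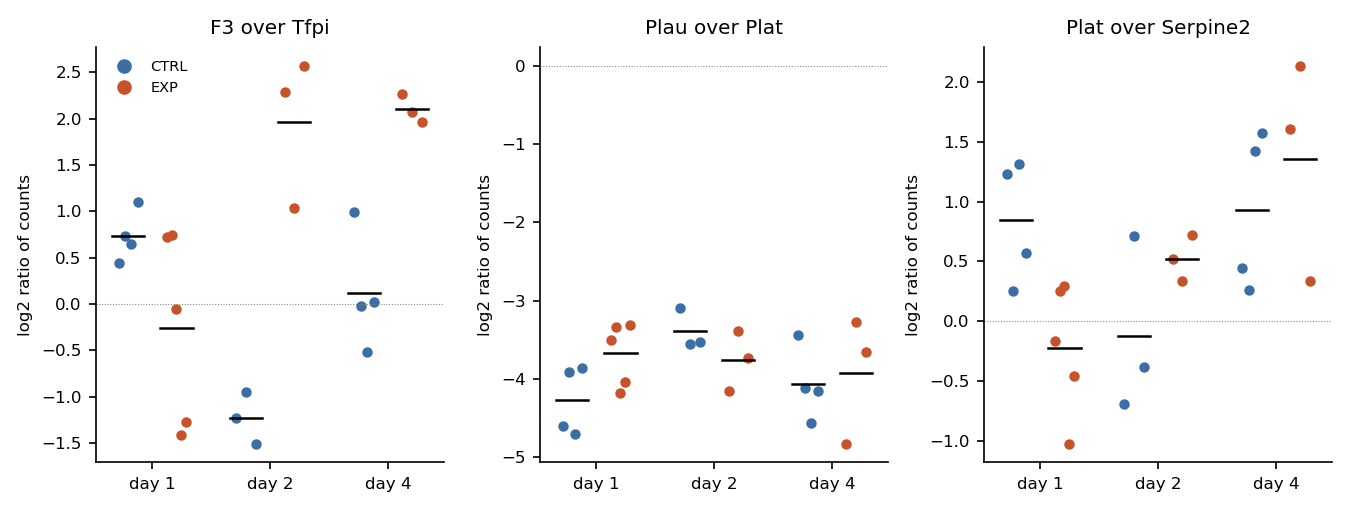
Log2 ratio of the counts of F3 to Tfpi, Plau to Plat and Plat to Serpine2 in every library by day; blue points are CTRL, orange points EXP, black bars group means and the dotted line marks equal counts. The F3 to Tfpi ratio of the EXP libraries lies between 1.04 and 2.57 on day 2 and between 1.96 and 2.27 on day 4, above all CTRL libraries of those days.

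Thbd, which encodes thrombomodulin, the thrombin receptor that lets thrombin activate protein C, rose on days 2 and 4. It was at 56.8, 26.9, 72.5 and 24.8 CPM in CTRL on day 1 and at 81.4, 93.1, 37.3, 47.9 and 59.9 CPM in EXP. Thbd on day 2 was at 21.6, 25.3 and 22.004 CPM in CTRL and at 58.4, 49.1 and 129.7 CPM in EXP. By day 4 Thbd was at 34.8, 44.3, 41.9 and 40.3 CPM in CTRL and at 536, 195 and 128 CPM in EXP. The CTRL libraries of days 2 and 4 were tight and all EXP libraries of those days lay above them, while the day 1 arms overlapped. For Thbd the log2 fold changes on days 1, 2 and 4 were 0.50, 1.78 and 2.83, with standard errors of 0.40, 0.50 and 0.46 and adjusted p of 0.373, 0.0219 and 6.37e-04. The rises were 3.44-fold and 7.11-fold. The day 2 call was lost without any 1 of the 3 CTRL libraries (adjusted p 0.0754, 0.0660 and 0.0733) and without EXP replicate 3 (1.22, adjusted p 0.136). Without EXP replicate 1 the day 4 value was 2.01 (adjusted p 0.00635).

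Procr, which encodes the receptor that presents protein C to the thrombin and thrombomodulin complex, passed the test on no day and varied widely between replicates. Procr on day 1 was at 86.5, 53.2, 83.2 and 27.5 CPM in CTRL and at 60.7, 265, 37.9, 25.5 and 16.3 CPM in EXP. Procr on day 2 was at 14.1, 14.9 and 17.1 CPM in CTRL and at 20.3, 39.0 and 52.4 CPM in EXP. By day 4 Procr was at 48.7, 170.3, 31.0 and 54.8 CPM in CTRL and at 50.7, 431 and 102 CPM in EXP. On day 2 all EXP libraries lay above all CTRL libraries, and on the other days the arms overlapped, with 1 library far above the rest in day 1 EXP and 1 in each day 4 arm. For Procr the log2 fold changes on days 1, 2 and 4 were 0.37, 1.27 and 1.35, with standard errors of 0.73, 0.91 and 0.82 and adjusted p of 0.740, 0.383 and 0.246. Without day 1 EXP replicate 2 the day 1 value was -0.83, and without day 4 EXP replicate 2 the day 4 value was -0.01.

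Thbd, Procr, Tfpi and Plat are also known as genes of blood vessel endothelium, so markers of other cells are given beside them. The 8 endothelial markers summed to 4.59 to 11.3 CPM in the day 4 CTRL libraries and to 26.2, 55.6 and 24.9 CPM in day 4 EXP replicates 1, 2 and 3. Kdr and Emcn were the 2 of them that rose on day 4, and 1 rose on day 2, Kdr. Most of the sum was Tek, at a mean of 28.4 CPM in day 4 EXP, where its log2 fold change was 2.63 (adjusted p 0.0563). The defining marker Cdh5 reached at most 0.590 CPM in any library and Pecam1, which encodes CD31, at most 3.68 CPM. In day 4 EXP replicates 1, 2 and 3 Thbd was at 536, 195 and 128 CPM. Procr was at 50.7, 431 and 102 CPM there, Tfpi at 80.8, 60.7 and 39.0 CPM, and Plat at 770.2, 1164 and 304 CPM. The 5 adipocyte markers summed to 0.805, 37.3 and 129.8 CPM in day 4 EXP replicates 1, 2 and 3 against at most 0.580 CPM in CTRL, and 4 of them rose on that day. Among the 7 macrophage markers, 3 of which were tested, Cd68 rose on days 1 and 2 (log2 fold change 1.36 and 1.86, adjusted p 0.0207 and 0.0217), Csf1r fell on day 1 (-1.12, adjusted p 0.0174) and Ptprc, which encodes CD45, reached at most 0.243 CPM. Their sum was 33.8 to 128 CPM in EXP libraries and 39.8 to 162 CPM in CTRL libraries. Most of it was Csf1r, at means of 81.2 CPM in day 4 EXP and 120 CPM in day 4 CTRL. Of the 5 neutrophil markers, Cxcr2 was at 0 in every library, and S100a8, the 1 that was tested, rose on all 3 days (adjusted p 0.0131, 0.0165 and 0.00907). S100a8 had means of 0.344, 1.88 and 1.15 CPM in EXP on days 1, 2 and 4, against at most 0.0174 CPM in CTRL. The 6 fibroblast markers summed to 40688 CPM or more in every library, and on each day the sums of the EXP libraries lay below those of the CTRL libraries, on day 4 at 40688 to 184622 CPM against 187875 to 248320 CPM. Most of that sum was Col1a1 and Col1a2, at means of 46121 and 45017 CPM in day 4 EXP. Of the 6 fibroblast markers, 1 rose and 3 fell on day 1, 1 rose and 4 fell on day 2, and 1 rose and 3 fell on day 4. Pdgfra rose on all 3 days (log2 fold change 0.84, 1.71 and 0.79, adjusted p 0.0154, 0.00134 and 0.0456), Col1a1 fell on all 3 days (-0.99, -1.85 and -1.13, adjusted p 0.0319, 0.00693 and 0.0450), and Cd34 fell on days 1 and 2 (-1.74 and -2.07, adjusted p 8.10e-04 and 0.00379). The mesothelial marker Wt1 rose on days 2 and 4 (log2 fold change 7.36 and 9.03, adjusted p 0.0208 and 0.00204). Msln passed on no day. Among platelet markers Ppbp rose on day 4 (7.78, adjusted p 0.0138) and Itga2b fell on day 2 (-1.51, adjusted p 0.00433). Wt1 and Ppbp had group means of at most 2.51 and 1.05 CPM. Keratinocyte, melanocyte, pericyte and smooth muscle, and Schwann markers gave no rise on any day, and some keratinocyte and pericyte markers fell. The part of these markers in the results of the set was not tested.

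The effect of the expander differed between days for 7 of the 9 genes, all but Serpinf1 and Procr, when the EXP effects of the 3 days were tested jointly, and 8.82% of all tested genes passed that test. The adjusted p was 8.03e-04 for F3, 0.00169 for Plat, 0.0262 for Plau, 0.0295 for Tfpi, 0.0336 for Plaur, 0.0396 for Serpine2 and 0.0417 for Thbd. From day 1 to day 2 the effect rose for 2 genes, by 5.03 on the log2 scale for F3 (SE 0.73, adjusted p 0.00159) and by 2.43 for Plat (SE 0.52, adjusted p 0.0158), where 2.96% of all tested genes changed, 2.48% up and 0.484% down. From day 1 to day 4 the effect changed for 7 genes (13.3% of all), up for 6 (8.16% of all) and down for 1, Plaur (5.18% of all). Its effect changed by -1.41 (SE 0.35, adjusted p 0.0131). F3 and Plat kept their day dependence in all 22 fits that left out 1 library. The others lost it in some: Plau in 3, Plaur in 8, Tfpi in 8, Serpine2 in 10 and Thbd in 16 of 22. With a block for the replicate number in that test, F3 (adjusted p 0.0159) and Plat (0.0483) passed and the other genes did not. Of all tested genes, 2.28% passed with the block. With low-side libraries alone F3 passed (adjusted p 0.0166) and the 8 others did not, with Plat at 0.0645, where 0.262% of all tested genes passed.

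Within the EXP arm 6 genes changed over the 3 days, and 14.3% of all tested genes did. They were Plat (adjusted p 5.22e-05), Plau (3.79e-04), Serpine2 (0.00155), F3 (0.00266), Thbd (0.00307) and Plaur (0.0328). Plaur was highest on day 1 and lowest on day 4, and the other 5 genes were highest on day 4. The call of Plaur was lost without day 1 EXP replicate 1 or 5 or day 4 EXP replicate 1 or 2 (adjusted p of up to 0.153), and that of Thbd without day 4 EXP replicate 1 (0.0725). Without day 1 EXP replicate 2 all 9 genes passed, Serpinf1 at 0.0347 and Procr at 0.0186, and 13.7% of all tested genes did. Tfpi also passed without day 4 EXP replicate 3 (0.00577). With low-side libraries alone 5 of the 9 genes passed, Plat, Plau, Serpine2, F3 and Thbd, and Plaur was at 0.0626. Within the CTRL arm 2 genes changed, F3 (adjusted p 0.0380) and Tfpi (0.0364), where 0.291% of all tested genes did. Both were lowest on day 2: F3 was at 83.1 ± 19.7 CPM on day 1, 9.61 ± 1.49 on day 2 and 43.0 ± 19.4 on day 4 (SD, n = 4, 3 and 4), and Tfpi was at 49.5 ± 8.45, 22.5 ± 2.44 and 37.2 ± 2.61 CPM. The other genes except Plaur also had their lowest CTRL means on day 2, and none of them passed over days: Plat, Thbd and Procr were at 45.8, 23.0 and 15.4 CPM, with adjusted p of 0.163, 0.471 and 0.364, and Plau, Serpine2 and Serpinf1 at 4.29, 52.2 and 1089.9 CPM. The CTRL calls were lost in 9 of 11 fits that left out 1 CTRL library for F3 and in 8 of 11 for Tfpi, with adjusted p of up to 0.121 and 0.126, and on the low side alone (0.144 and 0.432).

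Levels can be compared between genes only per length of transcript, here CPM per kilobase of the union of exons. On that scale Serpinf1 was highest in every group, with group means of 350 to 544, and Plaur followed with 122 to 241. Plau was lowest in 5 groups, from 1.81 in day 2 CTRL to 5.79 in day 2 EXP, and in day 4 EXP, where Plau reached 24.1 ± 23.1 (SD, n = 3), Tfpi was lowest at 11.02 ± 3.82 (SD, n = 3). Urokinase receptor RNA therefore exceeded urokinase RNA per kilobase in all 6 groups. In day 4 EXP Plat reached 119.5 ± 69.0, F3 105 ± 47.3 and Plaur 122 ± 37.8 CPM per kilobase (SD, n = 3), so the means of these 3 lay within 1 SD of each other. In day 2 CTRL the same genes were at 7.33 ± 1.15, 3.80 ± 0.588 and 207 ± 16.6 CPM per kilobase (SD, n = 3).

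Across the 22 libraries, 20 of the 36 pairs of genes in the set had a Pearson r of log2 CPM above 0.5, and 8 pairs did after group means were removed. These are descriptions, since the points share libraries and groups. Plat went most closely with Plau (r 0.91, and 0.69 within groups), Thbd (0.87 and 0.69) and F3 (0.84 and 0.49). Plaur had a negative r with each of the 8 others, from -0.57 with Plat to -0.16 with Serpine2. Among all tested genes, those most like each member over the 22 libraries were Dbn1 (r 0.95) and Tspan6 (0.93) for Plat, and Plscr1 (0.92), Plat (0.91) and Gas7 (0.91) for Plau. For Plaur they were Stat3 (0.88), Slc3a2 (0.87) and Nup62 (0.86). The lists of the inhibitors were led by Selenoi (0.89), Csf2 (0.88) and Pcnx4 (0.88) for Serpine2 and by Aldh7a1 (0.91), Smpdl3a (0.88) and Pcolce (0.88) for Serpinf1. Cygb (0.93), Bmper (0.91) and Ildr2 (0.90) were most like F3, and Dctd (0.87), Plod2 (0.81) and Ctps2 (0.81) most like Tfpi. S1pr3 (0.91), Aif1l (0.91) and Olfr1033 (0.90) were most like Thbd, and Gm21917 (0.87), Mgll (0.82) and Slc43a3 (0.82) most like Procr.

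A wider list of 53 genes, drawn around fibrinolysis and coagulation, gave 33 tested genes. Vasn and Masp1 are on it although their main roles lie elsewhere. Of these, 2 rose and 4 fell on day 1 (13.9% and 14.7% of all tested genes), 6 rose and 1 fell on day 2 (7.72% and 5.71% of all), and 7 rose and 3 fell on day 4 (12.8% and 9.66% of all). The list had median log2 fold changes of 0.17, 0.20 and 0.06 on the 3 days, against 0.02, 0.02 and 0.03 for all tested genes. Tgm2, which encodes the crosslinking enzyme tissue transglutaminase, rose on all 3 days, by a log2 fold change of 1.22, 2.02 and 1.44 (adjusted p 0.0319, 0.0134 and 0.0296). Serpinb8, a serpin of the cytoplasm, fell on all 3 days (-0.61, -1.14 and -0.78, adjusted p 0.0394, 0.00778 and 0.0308). Both genes had calls that single libraries decided: Tgm2 lost its calls in 5 of 9, 2 of 6 and 4 of 7 fits that left out 1 library on days 1, 2 and 4, and Serpinb8 in 7 of 9, 1 of 6 and 5 of 7. Within 1 side of the library split Tgm2 lost its day 4 call (adjusted p 0.0605) and Serpinb8 its day 1 and day 4 calls (0.108 and 0.0712). F2r rose on day 2. Named after their values were seen, the other genes that rose were Vasn on day 1, Masp1 on day 2, Eno1, Kng1 and F2rl1 on days 2 and 4, and Serpinb2, Serpinb6a and F7 on day 4. The other genes that fell were Plgrkt, Mrc2 and F7 on day 1 and F13a1 and Fgl2 on day 4. F7 and Kng1 were near the limit of detection, with group means of at most 0.815 and 1.12 CPM.

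Serpinb2, which encodes plasminogen activator inhibitor 2, had the largest rise of the wider list on day 4. It was at 5.80, 3.90, 0.0419 and 0 CPM in the CTRL libraries and at 1036, 1259 and 42.9 CPM in the EXP libraries, a log2 fold change of 8.33 with a standard error of 1.67 and an adjusted p of 0.00270. Serpinb2 on day 2 was at 0.796, 1.62 and 0.674 CPM in CTRL and at 12.3, 10.7 and 44.4 CPM in EXP (log2 fold change 4.45, SE 1.69, adjusted p 0.0876).

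Among the receptors that coagulation proteases cut, F2r, the main thrombin receptor, rose on day 2 (log2 fold change 1.62, SE 0.46, adjusted p 0.0250) from 151 ± 77.4 to 464 ± 108 CPM (SD, n = 3 and 3). It differed by 0.83 on day 1 (adjusted p 0.106) and by 0.03 on day 4 (adjusted p 0.968), and its day 2 call was lost in 4 of 6 fits that left out 1 library. F2rl1, which encodes the receptor that the tissue factor and factor VII complex can cut, was at 0, 0.104 and 0.269 CPM in CTRL and at 3.89, 1.14 and 1.25 CPM in EXP on day 2. By day 4 F2rl1 was at 0, 0.343, 0.0419 and 0 CPM in CTRL and at 4.75, 1.98 and 0.928 CPM in EXP. The EXP libraries were higher on both days at these low levels, by 3.99 and 4.64 on the log2 scale, with standard errors of 1.10 and 1.01 and adjusted p of 0.0203 and 0.00380. The day 2 call was lost in 3 of 6 fits that left out 1 library, and the day 4 call in none, although its value was 7.04 without CTRL replicate 2. Among low-side libraries the day 4 call was lost (3.82, adjusted p 0.0663). Anxa2, which binds plasminogen and tissue-type activator at the cell surface, passed on no day (log2 fold change -0.38, -0.48 and 0.30).

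**Figure D4:**
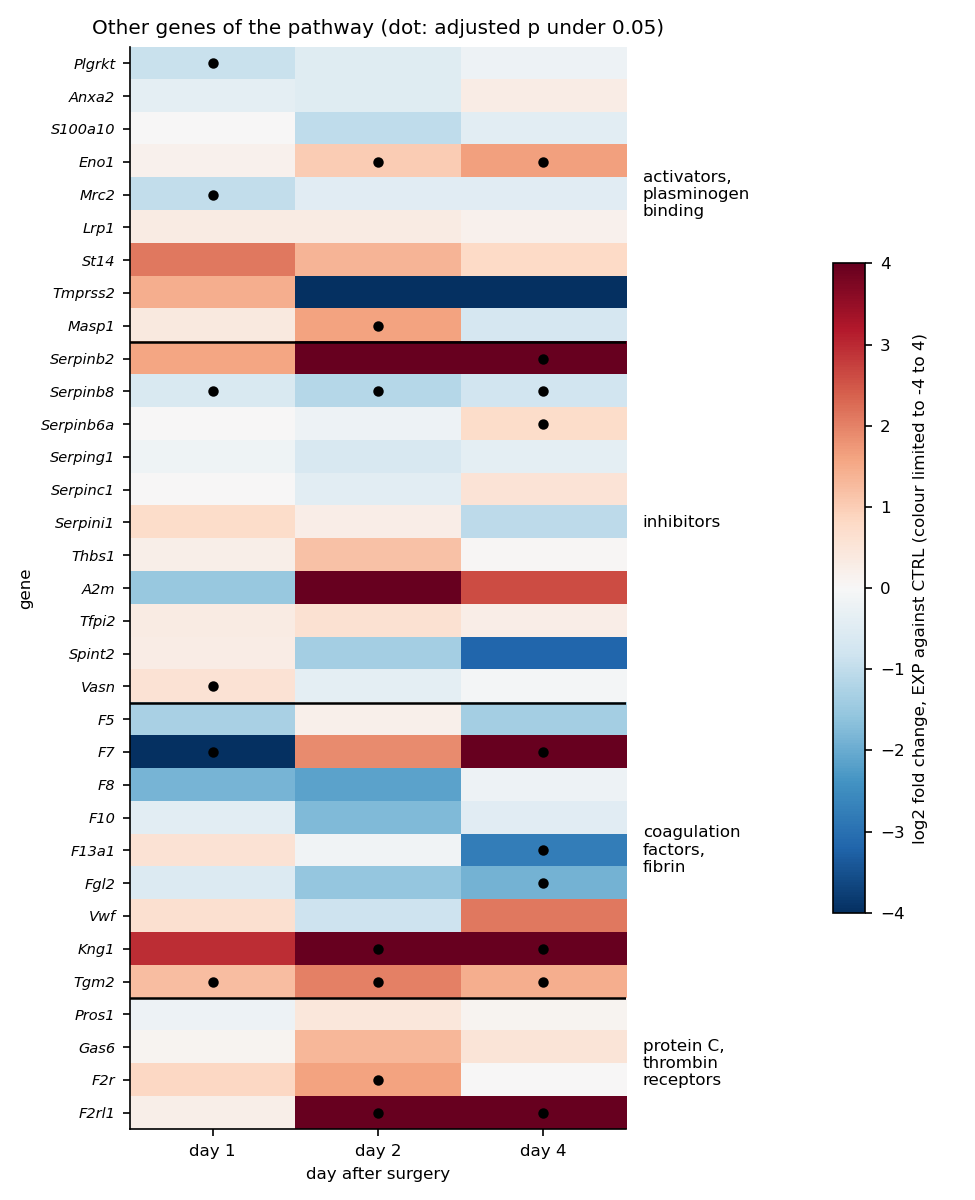
Log2 fold change of EXP against CTRL on days 1, 2 and 4 for the 33 tested genes of the wider list, grouped by role, as colour limited to -4 to 4; a dot marks an adjusted p under 0.05. Tgm2 is red with a dot on all 3 days and Serpinb8 blue with a dot on all 3 days, while most cells have no dot.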

How the data were processed

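The authors deposited raw read counts per gene, whole numbers with 1 column for each of 22 libraries. The submitters' processing notes name Trimmomatic and the build mm39, while the aligner, counter, annotation release and use of strand are not given in the sources used here. Symbols for 52081 of the 55414 identifiers, and exon lengths, came from GENCODE M21, whose build differs from mm39, so gene coordinates are given only for RefSeq promoter windows. In M21 no exon of the 9 genes overlaps another gene's exon.

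Counts were analysed in R 4.3.3 with edgeR 4.0.16: filterByExpr (minimum count 10), TMM scaling, and the robust quasi-likelihood F-test on 6 group means with 16 residual degrees of freedom. Standard errors are the absolute log2 fold change over the root of F. Log2 CPM used a prior count of 2, and ratios within a library a prior count of 0.5. Counts of 3 or fewer were taken as not detectable, and floors cover counting error only. Chi-square values between replicate libraries, divided by their degrees of freedom, ran from 26.7 to 403, so none was merged. The fit was tested on simulated data first. Same-numbered CTRL and EXP libraries were not treated as pairs.

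The members and lists were chosen with earlier results of these data known. Named genes were all 9 members, the 3 genes most correlated with each, genes of the wider list called on all 3 days in 1 direction, F2r and Anxa2. Of the genes so chosen, 2 are not reported here, and the wider list is counted without them. Alternatives were DESeq2 1.42.0 (its test or its size factors), limma 3.58.1 voom with quality weights, library totals without TMM, no filter on low counts, a replicate block, the library split as a covariate, each day alone, an absolute log2 fold change of at least 1, a prior count of 2 in ratios, and each library left out. Leaving out 3 libraries that stood apart and staying within 1 side of the library split, or on its low side alone for tests across days, were chosen after seeing the data.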

Additional observations from a re-analysis of the deposited data

Results flagged for a closer look

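Single libraries stood far from the other libraries of their group, by Dixon's ratio, in 5 of 54 groups examined. Chance gives about 1 in 20 for normally distributed values, which was not tested. The groups with 3 libraries, day 2 CTRL, day 2 EXP and day 4 EXP, were not examined. Procr was at 265 CPM in day 1 EXP replicate 2, with the next library at 60.7 CPM, and at 170.3 CPM in day 4 CTRL replicate 2, with the next at 54.8 CPM. Serpinf1 was at 951 CPM in day 1 CTRL replicate 3, with the others from 1192 to 1226 CPM. In the wider list, Serpinb2 was at 57.9 CPM in day 1 EXP replicate 2 (next 7.65 CPM) and F2rl1 at 0.343 CPM in day 4 CTRL replicate 2 (next 0.0419 CPM). Day 1 EXP replicate 2 was thus outlying for both Procr and Serpinb2.

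The EXP effect differed between the 3 days by edgeR's joint quasi-likelihood test for F3 (adjusted p 8.03e-04), Plat (0.00169), Plau (0.0262), Tfpi (0.0295), Plaur (0.0336), Serpine2 (0.0396) and Thbd (0.0417). For F3 the log2 fold change was -0.95 on day 1 and 4.08 on day 2, and for Plaur it was 0.83 on day 1 and -0.58 on day 4.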

How the results depend on the processing

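Over the settings other than leaving out 1 library, 606 values of single genes kept their direction and side of the threshold, 57 lost a call, 18 gained one and 12 reversed; with 1 library left out these were 588, 118, 7 and 13. The cause was not tested for any of them. Same-numbered libraries had correlations of their deviations of -0.0664 to 0.164. Libraries with unlike numbers were not compared, so these values cannot show whether a shared number marks pairs. With the replicate block, 1, 4 and 5 members were called on days 1, 2 and 4, 2 members and 401 genes for the difference between days, 4 members and 1365 genes within EXP, and 0 members and 1 gene within CTRL. Library totals without TMM moved the median of all genes to 0.21, 0.49 and 0.36 on days 1, 2 and 4, called 4631 genes on day 2 and 163 within CTRL, and raised the share of higher calls from 48.7%, 57.5% and 57.0% to 66.2%, 90.5% and 80.7%; the counts of members called stayed at 2, 6 and 6, while day 2 values reversed for Plaur (0.45) and Serpinf1 (0.0519). Voom called 4 members on day 1 (2 of them falls), 4620 genes on day 2, 2352 for the difference and 631 within CTRL, and DESeq2 called 2606 for the difference and 519 within CTRL. An absolute log2 fold change of at least 1 left 0 members on day 1 and 2504, 1568 and 2405 genes on days 1, 2 and 4. Day 4 alone gave 1128 genes. Without the filter 1 member changed within CTRL, and with the split as a covariate 0 members and 29 genes did. Without the 3 libraries that stood apart, 1 member was called on day 1, 1 within CTRL and 923 genes for the difference. Within 1 side of the split, 1 member was called on day 1, with 2704 genes on day 1 and 1293 on day 4. On the low side alone, 1 member and 51 genes were called for the difference, 1392 genes within EXP, and 0 members and 7 genes within CTRL.

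With 1 library left out, members called ranged over 1 to 3, 3 to 4 and 5 to 7 on days 1, 2 and 4, 2 to 7 for the difference, 4 to 9 within EXP and 0 to 2 within CTRL; all genes called ranged over 4024 to 4830, 891 to 2177, 1633 to 5011, 898 to 2572, 1367 to 3415 and 5 to 92. Procr on day 1 was -0.70 by voom, -1.08 without the 3 libraries and -0.83 to 0.64 with 1 library left out (lowest without EXP replicate 2), and on day 4 it was -0.0115 to 2.12 (lowest without EXP replicate 2). Plaur on day 2 ran from -0.17 to 0.0761 (above 0 without CTRL replicate 1 or EXP replicate 3). Serpinf1 on day 4 was -0.0115 with the block, -0.00896 without the 3 libraries, -0.15 within 1 side, and -0.13 to 0.25 with 1 library left out (below 0 without CTRL replicate 3, CTRL replicate 4 or EXP replicate 2). F2rl1 on day 1 was -0.18 with the block, -0.33 with the split as a covariate, -0.40 within 1 side, and -0.14 to 0.53 with 1 library left out (below 0 without CTRL replicate 3 or EXP replicate 4). F2r on day 4 was -0.0888 by voom, -0.0129 with the split, and -0.39 to 0.25 with 1 library left out (below 0 without CTRL replicate 2 or EXP replicate 3). Serpinb2 on day 1 was -0.27 to 2.77, and Anxa2 on day 4 -0.0653 to 0.51, both lowest without EXP replicate 2. The ratio of Plau to Plat on day 4 ranged from -0.17 to 0.60, below 0 without CTRL replicate 3 or EXP replicate 2.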
